A study of Trichoderma atroviride with 42 samples.

Results

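Cytoskeletal transcripts of the filamentous fungus Trichoderma atroviride were followed in 14 groups of mycelium: actin (Tatro_010755-T1), an actin-depolymerising factor (Tatro_005840-T1, abbreviated ADF), alpha tubulin (Tatro_003350-T1), beta tubulin (Tatro_008989-T1) and a kinesin (Tatro_008551-T1). They are 5 of the 11786 genes in the deposited count table, and all 5 were among the 9193 genes that passed the filter on low counts. The 5 genes were chosen by measured values of this series: earlier results had named them among the genes lower after scalpel injury or larval grazing than in untreated mycelium. Which comparison named the kinesin was not recorded, so all 8 comparisons of injured or larvae-grazed mycelium with a control count as used in the choice, and they are described below with no p-value. The gene names are the product texts that the authors' deposited table for 30 min after injury pairs with the IDs (Actin family, Actin-depolymerising factor homology domain, Alpha tubulin, Beta tubulin and Kinesin motor domain).

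All groups were wild-type mycelium grown from conidia on cellophane over potato dextrose agar for 36 h in darkness at 27 °C. MI mycelium was cut with a scalpel (mechanical injury), Dm mycelium was grazed for 10 min by larvae of Drosophila melanogaster, and Of mycelium was grazed for 10 min by the collembolan Orthonychiurus folsomi, each sampled early (30 and 90 min) and late (4 h and 8 h). Untreated plates were opened for 2 min and sampled early (CT0, labelled as time 0, whereas the design text speaks of 30 min) and at 8 h (CT8), so that no untreated group matches 90 min or 4 h. The 30 and 90 min groups were set against CT0 and the 4 h and 8 h groups against CT8. CT8 is, however, no nearer to 4 h than CT0 is. Values against the other control are given where they end the call of a single gene named here. Each of the 14 groups had 3 separate biological replicates, and every replicate was a pool of 3 technical ones. Levels are given as CPM, the read counts per 1000000 of the scaled library size.

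Actin is the globular protein that polymerises into the filaments along which vesicles, endocytic patches and the cytokinetic ring of fungal hyphae are organised. Alpha and beta tubulin form the heterodimers of microtubules, the tracks for long-distance transport of nuclei and vesicles towards the growing tip, and kinesins are motors that walk on them. ADF proteins sever and depolymerise actin filaments, so that the monomers can be used again at sites of growth.

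Library totals lay between 1152096 and 5398093 counts. In 3 libraries 1 gene took over 10% of the counts, with 16.9% in CT0 replicate 2, 14.9% in Dm_8h replicate 2 and 12.5% in Of_30min replicate 1. As a check for aerial hyphae and spores, 3 genes whose texts matched words for them were summed. The sums were 372 to 1695 CPM in MI libraries, 253 to 1083 CPM in Dm libraries, 922 to 1221 CPM in Of libraries, 1076 to 1125 CPM in CT8 and 805 to 1073 CPM in CT0. In CT8 the sum was mostly 1 gene, a Cerato-platanin (Tatro_001935-T1) at 1056 CPM. The sum is therefore not read as a measure of aerial hyphae or spores. A Cerato-ulmin hydrophobin (Tatro_007246-T1), a coat protein of aerial hyphae, is 1 of the 3. It averaged 1.15, 1.44, 72.8 and 136 CPM in MI mycelium at the 4 times, 1.3, 9.29, 69.2 and 232 CPM in Dm mycelium, 1.89, 2.11, 2.16 and 17 CPM in Of mycelium, 7.28 CPM in CT8 and 2.68 CPM in CT0. It was thus high in the late MI and Dm groups, and at 0 in 1 MI_30min library. The early groups were near CT0 except Dm_90min, at 7.68 to 10.2 CPM against 1.72 to 3.84 CPM in CT0. Its part in the levels below was not tested. In bulk mycelium, fewer hyphal cells of a type and less RNA of a gene in each cell cannot be told apart.

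Actin mRNA was low in all MI and Dm libraries and high in all Of libraries. In MI mycelium it stood at 2112, 2087 and 2008 CPM at 30 min, 1887, 1847 and 1855 CPM at 90 min, 2262, 2198 and 2427 CPM at 4 h, and 2340, 2582 and 2810 CPM at 8 h. In Dm mycelium the values were 1899, 1976 and 1778 CPM at 30 min, 2160, 2484 and 2647 CPM at 90 min, 2659, 2724 and 2611 CPM at 4 h, and 2541, 2307 and 2622 CPM at 8 h. The 24 MI and Dm libraries thus spanned 1778 to 2810 CPM, and none reached the Of libraries. Of mycelium held 4478, 4009 and 4220 CPM at 30 min, 4088, 3838 and 4333 CPM at 90 min, 3995, 4309 and 4410 CPM at 4 h, and 4013, 4221 and 3843 CPM at 8 h, against 4318, 4070 and 3968 CPM in CT8 and 2704, 2608 and 2488 CPM in CT0. CT8 lay within the Of range, whereas CT0 lay within the range of the MI and Dm libraries.

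The ADF gene, whose product severs actin filaments, had the same 5 groups at the top. MI mycelium held 158, 158 and 144 CPM at 30 min, 116, 143 and 110 CPM at 90 min, 169, 209 and 207 CPM at 4 h, and 239, 251 and 213 CPM at 8 h. Dm mycelium held 130, 205 and 149 CPM at 30 min, 153, 200 and 226 CPM at 90 min, 269, 226 and 254 CPM at 4 h, and 256, 215 and 239 CPM at 8 h. The MI values were lowest at 90 min, and the Dm values at 30 and 90 min were widely spread. Of mycelium held 333, 366 and 364 CPM at 30 min, 322, 307 and 299 CPM at 90 min, 328, 324 and 325 CPM at 4 h, and 297, 296 and 286 CPM at 8 h, against 298, 319 and 284 CPM in CT8 and 255, 249 and 231 CPM in CT0. Every Of library lay above every MI and Dm library, the nearest values being 269 CPM in Dm_4h and 286 CPM in Of_8h.

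Alpha tubulin, the subunit exposed at the minus end of a microtubule, was at 1223, 1273 and 1118 CPM at 30 min, 1136, 1069 and 1007 CPM at 90 min, 1393, 1426 and 1528 CPM at 4 h, and 1494, 1576 and 1598 CPM at 8 h in MI mycelium. In Dm mycelium it was at 1132, 1179 and 1151 CPM at 30 min, 1182, 1297 and 1454 CPM at 90 min, 1796, 1609 and 1670 CPM at 4 h, and 1408, 1334 and 1571 CPM at 8 h. Of mycelium had 2651, 2530 and 2426 CPM at 30 min, 2204, 2277 and 2417 CPM at 90 min, 2406, 2598 and 2416 CPM at 4 h, and 2296, 2240 and 2158 CPM at 8 h, against 2342, 2337 and 2117 CPM in CT8 and 1846, 1741 and 1842 CPM in CT0. Here too the Of libraries stood clear of all MI and Dm libraries.

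Beta tubulin, its partner in the dimer, was at 975, 1018 and 946 CPM at 30 min, 926, 1030 and 860 CPM at 90 min, 1280, 1289 and 1425 CPM at 4 h, and 1360, 1509 and 1545 CPM at 8 h in MI mycelium. The Dm libraries had 1083, 1163 and 1017 CPM at 30 min, 1176, 1214 and 1240 CPM at 90 min, 1717, 1581 and 1571 CPM at 4 h, and 1492, 1374 and 1559 CPM at 8 h. In Of mycelium it was at 2156, 2172 and 2084 CPM at 30 min, 1966, 1952 and 2054 CPM at 90 min, 2021, 2210 and 2076 CPM at 4 h, and 2036, 1944 and 1885 CPM at 8 h, against 2046, 2089 and 1933 CPM in CT8 and 1798, 1644 and 1755 CPM in CT0. In MI and Dm mycelium alike the 4 h and 8 h libraries lay above those of 30 and 90 min.

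The kinesin gene, which encodes a microtubule motor, varied less between treatments. MI mycelium held 108, 104 and 97.7 CPM at 30 min, 91.1, 107 and 85.6 CPM at 90 min, 112, 112 and 118 CPM at 4 h, and 137, 121 and 113 CPM at 8 h. Dm mycelium held 104, 107 and 101 CPM at 30 min, 110, 105 and 57.0 CPM at 90 min, 159, 125 and 147 CPM at 4 h, and 114, 108 and 126 CPM at 8 h. The value of 57.0 CPM, in Dm_90min replicate 3, rests on 67 counts in a library of 1443447 counts and stood far below the 2 others. Of mycelium held 200, 173 and 174 CPM at 30 min, 166, 149 and 150 CPM at 90 min, 152, 162 and 164 CPM at 4 h, and 182, 156 and 159 CPM at 8 h, against 161, 165 and 164 CPM in CT8 and 162, 156 and 158 CPM in CT0. The highest Dm library (159 CPM at 4 h) lay within the Of range, so that this gene, unlike the 4 others, did not separate the treatments in every library. The share of all genes that separated in this way was not counted, and nothing is read from the number of members that did.

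**Figure D1:**
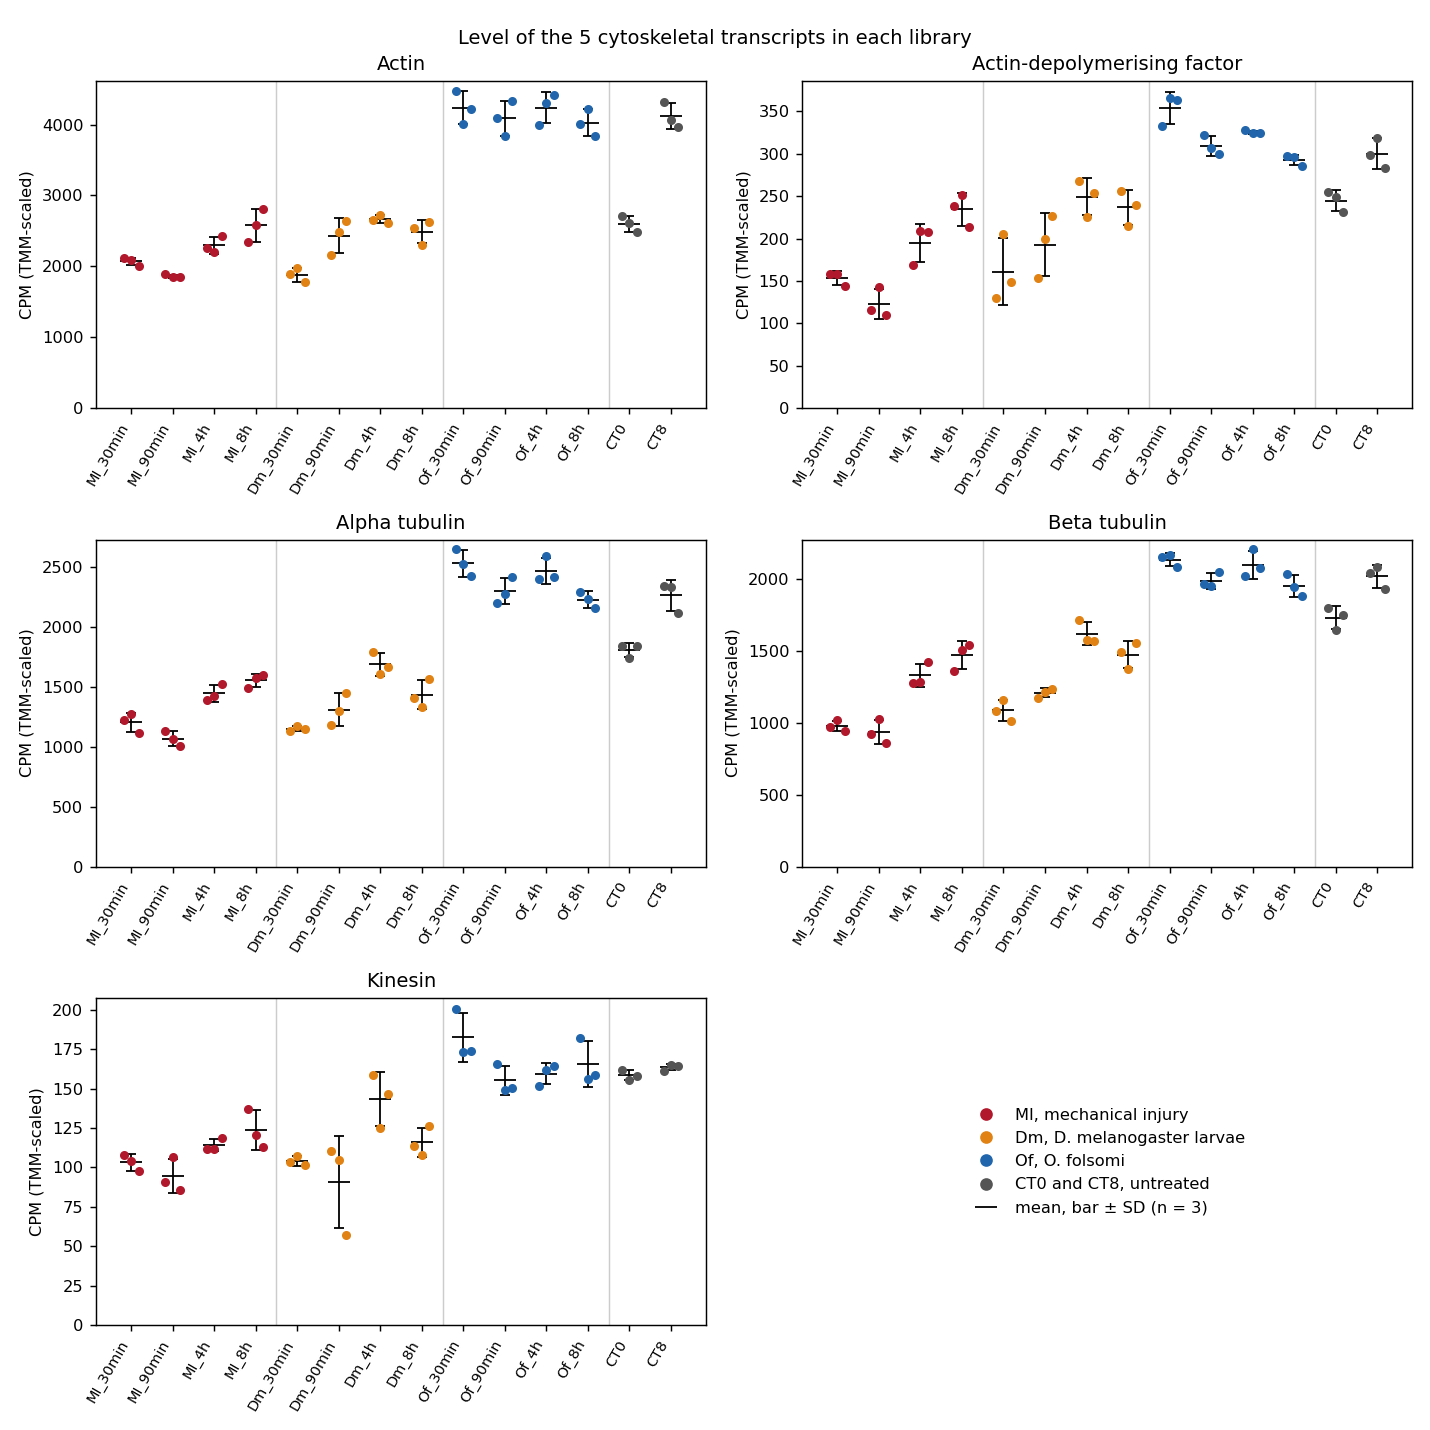
Level of each of the 5 transcripts (vertical axis, CPM on scaled library sizes, starting at 0) in each of the 42 libraries, by group; points are libraries, horizontal lines are means and bars are ± SD (n = 3). The blue Of points and CT8 form an upper band for actin, ADF and both tubulins, with actin at 1778 to 2810 CPM in the MI and Dm libraries and at 3838 to 4478 CPM in the Of libraries.

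Ordered by group mean, actin, ADF, alpha tubulin and beta tubulin shared their upper tier: the 4 Of groups and CT8 held ranks 1 to 5, and none of their libraries overlapped with the group at rank 6. Neighbours among these 5 groups overlapped for actin and both tubulins, while for ADF neither Of_30min and Of_4h nor Of_4h and Of_90min overlapped. MI_90min was the lowest group for these 4 genes, with a mean of 1863 ± 21 CPM for actin (SD, n = 3). The kinesin had its lowest mean in Dm_90min (90.6 CPM) and CT0 at rank 5, and each neighbouring pair among its 9 highest groups overlapped. That lowest mean rests on 57.0 CPM in Dm_90min replicate 3, beside 110 and 105 CPM in the 2 others, and MI_90min averaged 94.5 CPM. The levels chose the genes, and the share of all genes with such an upper tier was not counted, so this order is a description.

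Against these controls, the 5 transcripts had lower means in MI mycelium at every time. At 30 min the log2 change was -0.33 ± 0.09 for actin (SE), -0.67 ± 0.13 for ADF, -0.59 ± 0.09 for alpha tubulin, -0.82 ± 0.09 for beta tubulin and -0.62 ± 0.12 for the kinesin. At 90 min the log2 change was -0.48 for actin, -0.996 for ADF, -0.76 for alpha tubulin, -0.89 for beta tubulin and -0.75 for the kinesin, and the ADF level was 49.9% below CT0. At 4 h the log2 change was -0.84 for actin and -0.62 for ADF against CT8 (-0.18 and -0.33 against CT0), and against CT8 it was -0.64 for alpha tubulin, -0.60 for beta tubulin and -0.52 for the kinesin. Against these controls, ADF was the furthest below at 90 min and actin at 4 h. At 8 h the log2 change against CT8 was -0.68 for actin, -0.36 for ADF, -0.54 for alpha tubulin, -0.46 for beta tubulin and -0.40 for the kinesin. With CT0 in its place, actin was at -0.01, ADF at -0.06, alpha tubulin at -0.22 and beta tubulin at -0.24, and none of these was called.

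Larval grazing gave lower values in most of the same pairs. At 30 min the log2 change was -0.46 ± 0.09 for actin (SE), -0.60 ± 0.13 for ADF, -0.65 ± 0.09 for alpha tubulin, -0.67 ± 0.09 for beta tubulin and -0.61 ± 0.12 for the kinesin. At 90 min actin was at 2430 ± 248 CPM in Dm mycelium and 2600 ± 109 CPM in CT0 (SD, n = 3 each), and the groups overlapped (log2 change -0.10). The log2 changes of the 4 others at that time were -0.36 for ADF, -0.47 for alpha tubulin, -0.52 for beta tubulin and -0.75 for the kinesin. The kinesin value ran from -0.89 to -0.55 with 1 library left out. At 4 h the log2 change against CT8 was -0.63 for actin, -0.27 for ADF, -0.42 for alpha tubulin, -0.32 for beta tubulin and -0.18 for the kinesin. At 8 h it was -0.73, -0.34, -0.65, -0.45 and -0.49 for the same genes in this order. With CT0 in its place, actin (0.04), alpha tubulin (-0.10) and beta tubulin (-0.09) at 4 h were not called. Nor were actin (-0.06), ADF (-0.04) and beta tubulin (-0.23) at 8 h.

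By edgeR's quasi-likelihood test with Benjamini-Hochberg adjustment over all genes, at an adjusted p under 0.05, all 20 pairs of gene and time were called lower in MI mycelium, and 17 of 20 in Dm mycelium. The share of all 9193 genes called lower was 23.8% in MI_30min, 20% in MI_90min, 12.5% in MI_4h and 11.6% in MI_8h, and 20.4% in Dm_30min, 17% in Dm_90min, 9.78% in Dm_4h and 13% in Dm_8h. The choice of the genes rests on these contrasts, which fixed the outcome, and nothing is read from the counts. The size of the late values depends on the control: set against CT0, the actin log2 change was -0.18 in MI_4h, -0.01 in MI_8h, 0.04 in Dm_4h and -0.06 in Dm_8h, and against CT8 it was -0.76 in Dm_90min. Against the other control of each time, 14 of 20 pairs were called in MI and 12 of 20 in Dm mycelium.

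The authors' deposited tables, which list genes at a false discovery rate of at most 0.005 without naming their control, hold all 5 genes for injury and larvae at 30 and 90 min. Their table for injury at 4 h holds 4 of them and lacks the kinesin, and their table for larvae at 8 h holds actin and both tubulins. In the authors' deposited tables the log2 change of ADF at 90 min after injury is -1.23, and that of actin at 30 min after larvae is -0.963. None of the 5 genes is listed for injury at 8 h, larvae at 4 h or O. folsomi at 30 min.

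Of the 5 genes, actin and alpha tubulin were called higher in CT8 than in CT0. Actin averaged 4119 ± 180 CPM in CT8 and 2600 ± 109 CPM in CT0 (SD, n = 3 each), a log2 change of 0.66 ± 0.09 (SE) with an adjusted p of 1.3e-05 (edgeR). Alpha tubulin averaged 2265 CPM in CT8 and 1810 CPM in CT0 (log2 change 0.32, adjusted p 0.019 by edgeR), a call that ended when CT0 replicate 2 or 3 or CT8 replicate 1 or 2 was left out (0.30 to 0.34). ADF (log2 change 0.30, adjusted p 0.13), beta tubulin (0.22, adjusted p 0.1) and the kinesin (0.04, adjusted p 0.87) were not called in the same edgeR fit. So 2 of the 5 genes were called higher in CT8, beside 5.09% of all genes. Both control groups entered the choice of the genes. These tests, and those of Of mycelium against the controls, are therefore not independent of that choice.

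After grazing by O. folsomi, some of the 5 transcripts were called higher than in CT0 at 30 and 90 min, and none was called against CT8 at 4 h and 8 h. At 30 min actin was at 4236 ± 235 CPM in Of mycelium and 2600 ± 109 CPM in CT0 (SD, n = 3 each), a log2 change of 0.70 ± 0.10 (SE, adjusted p 1.1e-05, edgeR), with no overlap. ADF rose by a log2 change of 0.54 (adjusted p 0.005), alpha tubulin by 0.49 (adjusted p 0.00055) and beta tubulin by 0.30 (adjusted p 0.022) in the same edgeR fit, whereas the kinesin change of 0.19 was not called (adjusted p 0.36). The beta tubulin call ended without CT0 replicate 2 or 3, or without any 1 of the Of_30min libraries (0.26 to 0.31). So 4 of 5 genes were called higher, beside 6.2% of all genes. With library totals in place of scaled sizes, ADF (0.38, adjusted p 0.06) and beta tubulin (0.14, adjusted p 0.39) were not called by edgeR. Against CT8 none of the 4 was called, with actin at 0.04 (adjusted p 0.88), ADF at 0.24 (0.33), alpha tubulin at 0.16 (0.38) and beta tubulin at 0.08 (0.72) by edgeR. At 90 min actin (0.65, adjusted p 2.4e-05) and alpha tubulin (0.35, adjusted p 0.016) were higher than in CT0 by edgeR, beside 3.72% of all genes, and the alpha tubulin call ended without CT0 replicate 2 or 3 or Of_90min replicate 2 or 3 (0.31 to 0.36) and with library totals (0.29, adjusted p 0.099).

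Against CT8, no member differed in Of_4h, where log2 changes ran from -0.04 for the kinesin to 0.13 for alpha tubulin, nor in Of_8h, where they ran from -0.05 for beta tubulin to 0.02 for the kinesin. None of these 10 values passed even an unadjusted p of 0.05 by edgeR. All genes gave 0.207% called at 4 h and 0% at 8 h. The direction of the Of values hangs on which control is used: actin in Of_90min was -0.01 against CT8, and in Of_4h it was 0.70 against CT0 (adjusted p 3.2e-06, edgeR). Alpha tubulin in Of_90min was at 0.02 against CT8 and was not called.

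**Figure D2:**
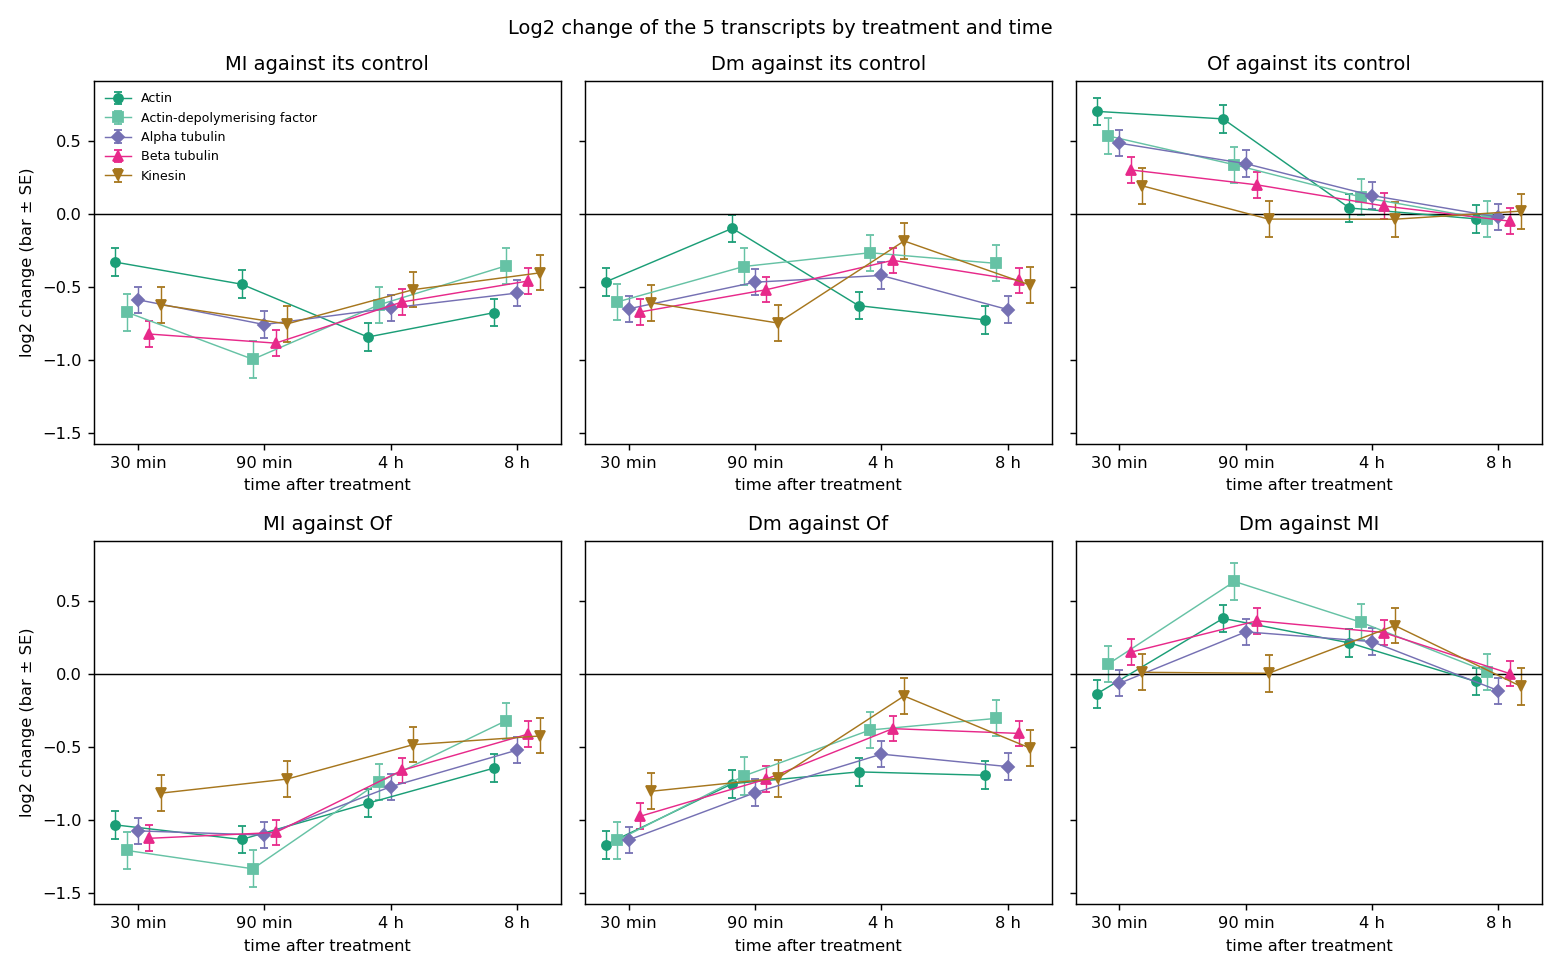
Log2 change (vertical axis, bars ± SE) of the 5 transcripts at 4 times from 30 min to 8 h (horizontal axis) for MI, Dm and Of against CT0 (30 and 90 min) or CT8 (4 h and 8 h) (upper panels) and for MI against Of, Dm against Of and Dm against MI (lower panels). Every value against Of is below 0, from -1.33 for ADF in MI_90min to -0.15 for the kinesin in Dm_4h, and the values of Dm against MI are largest at 90 min for 4 of the 5 genes.

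Compared with O. folsomi at the same time, injured mycelium was called lower in 19 of 20 pairs of gene and time, and every value was below 0. These comparisons need no untreated group, but they share the MI libraries with those that chose the genes and are not independent of the choice. At 30 min actin stood at 2069 ± 54 CPM in MI and 4236 ± 235 CPM in Of mycelium (SD, n = 3 each), a log2 change of -1.03 (adjusted p 2.7e-11, edgeR). ADF stood at 154 CPM in MI and 354 CPM in Of mycelium (log2 change -1.21), alpha tubulin at 1205 CPM in MI and 2536 CPM in Of mycelium (-1.07). Beta tubulin stood at 980 CPM in MI and 2138 CPM in Of mycelium (-1.13), and the kinesin at 103 CPM in MI and 182 CPM in Of mycelium (-0.82). All 5 were called at 30 min, 90 min and 4 h, and 4 at 8 h, beside 23.4%, 21.9%, 16.8% and 10.7% of all genes lower at the 4 times.

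The values were nearest to 0 at 8 h for all 5 genes, a change with time that was not tested. ADF was at -1.33 (adjusted p 1.6e-10) at 90 min, -0.74 (adjusted p 1.4e-05) at 4 h and -0.32 at 8 h, where it was not called (adjusted p 0.057, edgeR). Actin was at -1.13 at 90 min, -0.88 at 4 h and -0.64 at 8 h (adjusted p 5.4e-06, edgeR). Beta tubulin was at -1.09, -0.66 and -0.41 and alpha tubulin at -1.10, -0.77 and -0.52 at these 3 times. The kinesin was at -0.72, -0.48 and -0.42, and its call at 8 h (adjusted p 0.01, edgeR) ended without MI_8h replicate 3 (-0.36) or Of_8h replicate 1 (-0.35).

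Larvae-grazed mycelium was called lower than Of mycelium in 18 of 20 pairs, and every value was below 0. The shares of all genes called lower were 21.1%, 17.1%, 12.8% and 11.3% at the 4 times from first to last. Here, too, the Dm libraries are those that entered the choice. At 30 min the log2 change was -1.17 for actin (adjusted p 3.4e-12), -1.14 for ADF (3.2e-09), -1.14 for alpha tubulin (2.3e-12), -0.97 for beta tubulin (3.7e-11) and -0.80 for the kinesin (2.2e-06), all by edgeR. Actin was at -0.75, -0.67 and -0.69 at 90 min, 4 h and 8 h, and alpha tubulin at -0.81, -0.55 and -0.63. Beta tubulin was at -0.72, -0.37 and -0.41. ADF was at -0.70 at 90 min, at -0.38 at 4 h (adjusted p 0.019 by edgeR, a call that ended without Dm_4h replicate 2 or 3 or Of_4h replicate 1 or 2, at -0.39 to -0.31) and at -0.30 at 8 h (adjusted p 0.078). The kinesin at 4 h, at 144 CPM in Dm and 159 CPM in Of mycelium, was not called (-0.15, adjusted p 0.39, edgeR), while at 8 h it was at -0.51 (adjusted p 0.0024).

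Whether larvae and the scalpel gave different levels was tested at each time. It is not known whether this comparison also named any of the genes, and both sets of libraries entered the choice. Its tests are given with these limits. At 30 min none of the 5 genes was called, with log2 changes of Dm against MI between -0.13 for actin and 0.15 for beta tubulin, none at an unadjusted p under 0.05 by edgeR, beside 31.3% of all genes called in either direction.

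At 90 min the actin cytoskeleton genes and both tubulins were higher after larvae. ADF was at 193 CPM in Dm and 123 CPM in MI mycelium (log2 change 0.64 ± 0.13, SE, adjusted p 0.0012, edgeR). Actin was at 2430 ± 248 CPM in Dm and 1863 ± 21 CPM in MI mycelium (SD, n = 3 each; log2 change 0.38, adjusted p 0.0066, edgeR). Beta tubulin (0.37, adjusted p 0.005) and alpha tubulin (0.29, adjusted p 0.03) were also called by edgeR, and the kinesin was not (0.01, adjusted p 0.99). These are 4 of 5 genes, beside 6.73% of all genes called higher. The alpha tubulin call ended without any 1 of the MI_90min libraries or without Dm_90min replicate 3 (0.21 to 0.33). In an edgeR fit of only these 6 libraries the log2 changes were alike, 0.65 for ADF and 0.39 for actin, but none was called (adjusted p 0.14 and 0.42). With library totals ADF alone was called, and actin was at 0.28 (adjusted p 0.074, edgeR).

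At 4 h only beta tubulin was called, at 1623 CPM in Dm and 1331 CPM in MI mycelium (log2 change 0.29, adjusted p 0.042, edgeR), beside 3.89% of all genes called higher. That call ended without MI_4h replicate 1 or 2 or any 1 of the Dm_4h libraries (0.24 to 0.31). The other log2 changes at 4 h were 0.22 for actin, 0.36 for ADF, 0.22 for alpha tubulin and 0.33 for the kinesin, with adjusted p between 0.078 and 0.18 by edgeR. At 8 h all 5 lay between -0.11 and 0.02, none at an unadjusted p under 0.05 by edgeR, beside 1.51% of all genes called in either direction.

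The change of the larvae-to-injury difference between times was tested as an interaction, chosen after the values had been seen. The change of actin from 30 to 90 min was higher after larvae than after injury by 0.52 ± 0.13 on the log2 scale (SE, adjusted p 0.0054, edgeR), and that of ADF by 0.57 ± 0.18 (adjusted p 0.024). The values were 0.35 for alpha tubulin (adjusted p 0.052), 0.22 for beta tubulin (0.25) and -0.01 for the kinesin (0.99). These 2 calls among 5 genes stand beside 17.2% of all genes. No member was called between 90 min and 4 h, beside 3.05% of all genes, or between 4 h and 8 h, beside 2.68%; the number at an unadjusted p under 0.05 was 0 and 3 by edgeR.

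Within the injury course, the means of all 5 genes were lowest at 90 min, and 4 of the 5 were called higher at 4 h than at 90 min. The MI libraries entered the choice of the genes, so these tests between times are not independent of it. From 30 to 90 min only ADF was called, at 123 CPM at 90 min, against 154 CPM at 30 min (log2 change -0.32, adjusted p 0.044, edgeR), beside 17.9% of all genes called lower. This call ended without MI_30min replicate 1 or 2 or MI_90min replicate 1 or 3 (-0.30 to -0.25). At 4 h, ADF was at 195 CPM, against 123 CPM at 90 min, a log2 change of 0.67 (adjusted p 0.00013, edgeR). Beta tubulin (0.50, adjusted p 4.6e-05), alpha tubulin (0.44, adjusted p 0.00038) and actin (0.30, adjusted p 0.015) rose in the same step by edgeR, beside 13.6% of all genes called higher, and the kinesin was at 0.28 (adjusted p 0.088). The actin call ended without MI_4h replicate 3 (0.26). From 4 h to 8 h no gene was called, with log2 changes of 0.10 to 0.27, beside 12.4% of all genes called in either direction.

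In the larval course actin rose to 2430 CPM at 90 min, against 1884 CPM at 30 min (log2 change 0.37, adjusted p 0.0055, edgeR), beside 10.6% of all genes called higher, a call that ended without Dm_30min replicate 3 (0.31). ADF was at 0.24 in this step and not called (adjusted p 0.18), but was called without Dm_30min replicate 2 (0.45) or Dm_90min replicate 1 (0.38), and no difference between genes was tested. From 90 min to 4 h the kinesin (0.61, adjusted p 0.00042), beta tubulin (0.42, adjusted p 0.00039), alpha tubulin (0.37, adjusted p 0.0022) and ADF (0.39, adjusted p 0.02) rose by edgeR, beside 13.3% of all genes called higher. The kinesin value was 0.40 without Dm_90min replicate 3, the library with 67 counts, and was still called. The ADF groups overlapped, and its call ended without Dm_90min replicate 1 (0.23) or Dm_4h replicate 1 (0.33) or 3 (0.38). In a fit of only the 6 libraries of each step none of these 5 rises was called, with log2 changes of 0.36 to 0.62 and adjusted p of 0.084 to 0.38 by edgeR. From 4 h to 8 h none was called, with log2 changes of -0.30 to -0.07, beside 7.78% of all genes in either direction. Alpha tubulin alone was called there (-0.30) when Dm_8h replicate 3 was left out. The Dm libraries entered the choice of the genes too, so the tests of the larval course are not independent of it.

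In the Of course no member was called in any of the 3 steps, and none reached an unadjusted p of 0.05 by edgeR, with the log2 change furthest from 0 at -0.23 for the kinesin from 30 to 90 min. All genes gave 0.392%, 0% and 0.914% called in either direction in these steps. The whole span from 30 min to 8 h was not tested. ADF, at 286 to 297 CPM at 8 h and 333 to 366 CPM at 30 min, did not overlap between these times. Nor did alpha tubulin (2158 to 2296 CPM at 8 h, 2426 to 2651 CPM at 30 min) or beta tubulin (1885 to 2036 CPM at 8 h, 2084 to 2172 CPM at 30 min). Actin and the kinesin overlapped. The share of all genes without overlap was not counted, so nothing is read from this.

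Ratios of 2 transcripts within a library do not depend on how libraries are scaled, and 3 were compared between treatments over all 4 times by an exact two-sided permutation test with labels exchanged within times (160000 arrangements, 9 tests, Benjamini-Hochberg adjusted). The counts are not per length, so a ratio has meaning only between groups. The alpha to beta tubulin ratio was lower after larvae than after O. folsomi or injury. It averaged 1.06, 1.08, 1.04 and 0.974 in Dm mycelium at the 4 times from first to last, against 1.19, 1.16, 1.18 and 1.14 in Of mycelium, and the libraries did not overlap at 3 of 4 times. The mean log2 difference of Dm against Of was -0.17 (adjusted p 0.00056), and that of Dm against MI was -0.12 (adjusted p 0.0048), also without overlap at 3 of 4 times. MI mycelium, with 1.23, 1.15, 1.09 and 1.06, had a mean log2 difference of -0.05 from Of mycelium, not past the threshold (adjusted p 0.11). The untreated groups averaged 1.12 in CT8 and 1.05 in CT0.

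The ADF to actin ratio averaged 0.0853, 0.0790, 0.0938 and 0.0951 in Dm mycelium at the 4 times and 0.0839, 0.0760, 0.0770 and 0.0728 in Of mycelium, a mean log2 difference of 0.18 (adjusted p 0.035 by the exact permutation test). The difference lay in the late groups, at 0.28 at 4 h and 0.38 at 8 h, and at 0.01 at 30 min, and its call ended when any 1 of 9 of the 24 libraries was left out: Dm_30min replicate 2 or 3, Dm_90min replicate 3, Dm_8h replicate 1, Of_30min replicate 1, Of_90min replicate 3, Of_4h replicate 2 or 3, or Of_8h replicate 2. MI mycelium had 0.0742, 0.0662, 0.0850 and 0.0918 and did not differ from Of mycelium over all times (0.02, adjusted p 0.78), while Dm against MI was 0.16 (adjusted p 0.058). The difference of Dm from MI passed the threshold when any 1 of 7 of the 24 libraries was left out. The ratio was 0.073 in CT8 and 0.0942 in CT0, so the 2 controls differed in it as well.

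The kinesin to beta tubulin ratio was higher after injury than after O. folsomi. It was at 0.105, 0.101, 0.0858 and 0.0847 in MI mycelium at the 4 times, against 0.0854, 0.0780, 0.0759 and 0.0846 in Of mycelium. The mean log2 difference was 0.21 (adjusted p 0.0048 by the exact permutation test), with 0.31 at 30 min, 0.37 at 90 min, 0.18 at 4 h and -0.01 at 8 h. Dm mycelium had 0.0958, 0.0753, 0.0884 and 0.0785, and neither its difference from Of (0.04, adjusted p 0.78) nor that from MI mycelium (-0.17, adjusted p 0.058) passed the threshold. Without Dm_90min replicate 3, the library with 67 kinesin counts, the difference from Of was 0.12 and passed it. The difference from MI passed it without Dm_4h replicate 1 or 3, Dm_90min replicate 1 or MI_8h replicate 3. The untreated groups averaged 0.09155 in CT0 and 0.08094 in CT8. The Of means lay below CT0 at every time, as did the MI means at 4 h and 8 h.

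**Figure D3:**
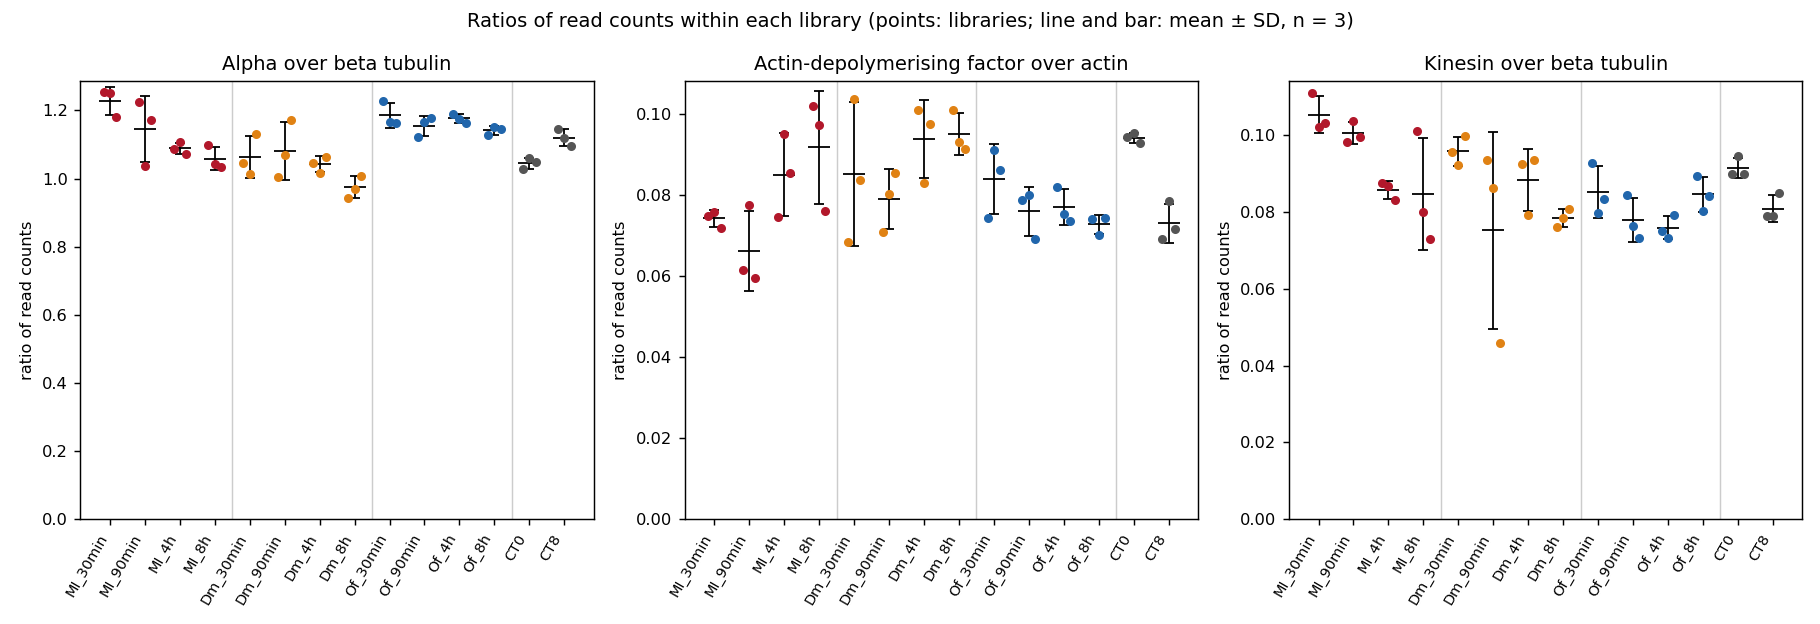
Ratio of read counts within each library (vertical axes, no unit, starting at 0) for alpha over beta tubulin, ADF over actin and kinesin over beta tubulin, by group: MI in red, Dm in orange, Of in blue and the untreated groups in grey; points are libraries, lines are means and bars are ± SD (n = 3). The alpha over beta tubulin ratio is lowest in Dm_8h (0.974) and highest in MI_30min (1.23).

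Over the 14 group means of log2 CPM, the 5 transcripts moved together, with Pearson's r of 0.985 between ADF and beta tubulin, 0.978 between alpha and beta tubulin, 0.976 between actin and alpha tubulin and 0.862 between actin and the kinesin, the lowest of the 10 pairs. The genes were chosen for this pattern and the values share libraries, so the r values are descriptions. Among 2585 texted genes with at least 10 CPM, the nearest to actin were Tatro_000253-T1, an Inosine triphosphate pyrophosphatase-like gene (r = 0.989), Tatro_005146-T1, a 14-3-3 domain gene (0.988), and Tatro_007949-T1, with an Immunoglobulin E-set (0.985). Nearest to alpha tubulin were Tatro_005358-T1 of the Alpha-D-phosphohexomutase superfamily (0.995), Tatro_007008-T1, a P-loop hydrolase (0.989), and Tatro_000253-T1 (0.987). Nearest to beta tubulin were Tatro_000916-T1, with a Cellular retinaldehyde binding text (0.994), Tatro_004016-T1, an FAD/NAD(P)-binding gene (0.986), and Tatro_005154-T1, of unknown function (0.985). ADF was nearest to Tatro_004016-T1 (0.991), Tatro_005154-T1 (0.99) and beta tubulin (0.985). The kinesin was nearest to Tatro_001815-T1, a Chitin synthase (0.988), Tatro_003864-T1, an Alpha/Beta hydrolase (0.982), and Tatro_006299-T1, an Endonuclease/exonuclease/phosphatase (0.977).

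The members were set beside 7 lists of other cytoskeletal and growth genes, defined by words in the product texts. A text is given only for 2865 genes that the authors listed at 30 min after injury, so the texted genes were selected on the MI_30min libraries, and MI counts are not independent evidence of a direction. The actin filament list held 31 genes besides the members, 4 of them matched by a word outside the theme (capping of telomeres or mRNA). In MI_30min 24 fell and 4 rose by edgeR, with a median log2 change of -0.58, beside 46.6% lower and 47.3% higher and a median of -0.15 among all texted genes. Against Of_30min 27 were lower and 4 higher in MI_30min (median -0.74), beside 43.5% and 43.7% of texted genes. All 5 subunits of the Arp2/3 complex, which nucleates branched actin filaments, were lower in MI_30min than in CT0 (-0.71 to -0.37) and in MI_90min (-0.70 to -0.47), 4 were lower in MI_4h and 0 in MI_8h. Both F-actin capping subunits (-0.78 and -0.66) and all 6 other genes with an ADF-type domain (-0.69 to -0.35) were lower in MI_30min as well.

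In Dm_30min 17 of the 31 actin filament genes were lower and 2 higher than in CT0 (median -0.40), beside 27.9% and 30.7% of texted genes, and in Dm_90min 5 were lower and 2 higher, beside 17.8% and 22.7%. Dm_90min against MI_90min gave 14 higher and 1 lower (median 0.32), beside 11.1% higher and 9.39% lower among texted genes, and this count was 6 higher without MI_90min replicate 1, 5 without Dm_90min replicate 3, 6 higher and 2 lower with library totals, and 0 in a fit of only these 6 libraries. Of_30min gave 6 higher and 0 lower than CT0, beside 9.08% and 5.17% of texted genes.

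Single actin genes were named by the largest called change at 90 min and 4 h. Here and in the lists below, a call was a condition of being named. The p-values printed for those contrasts are therefore descriptions. The gene with an Actinin-type actin-binding domain (Tatro_005482-T1), a cross-linker type of filament protein, was at 436 ± 45 CPM in MI_90min and 792 ± 41 CPM in CT0 (SD, n = 3 each; log2 change -0.86, adjusted p 9e-05, edgeR). It was at 419 CPM in MI_4h and 1035 CPM in CT8 (-1.31, adjusted p 4.4e-07), and at 433 CPM in Dm_4h (-1.26, adjusted p 1.2e-06 by edgeR). A Calponin homology gene (Tatro_000532-T1) went the other way, at 150 CPM in MI_90min and 94.4 CPM in CT0 (0.69, adjusted p 7.3e-05, edgeR). Chosen after their values were seen, profilin (Tatro_003703-T1), which binds actin monomers, was at 329 CPM in MI_30min and 509 CPM in CT0, and tropomyosin (Tatro_010550-T1), which lines filaments, at 1017 CPM in MI_30min and 1656 CPM in CT0. A Ysc84 actin-binding gene (Tatro_008588-T1), also chosen after its values were seen, was at 80.1 CPM in MI_30min and 23.4 CPM in CT0.

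In MI_30min, genes of the microtubule and motor list went mostly the other way from the 3 members that belong to it. Of 15 others, 10 rose and 3 fell in MI_30min against CT0 (median log2 change 0.57), with the texted genes at 47.3% higher and 46.6% lower. Against Of_30min 10 were higher and 3 lower (median 0.56), beside 43.7% and 43.5%. In MI_90min 6 rose and 1 fell, beside 29.8% higher and 26% lower among texted genes, and in Dm_30min 8 rose and 1 fell, beside 30.7% and 27.9%. In Dm_90min 1 rose and 1 fell, beside 22.7% and 17.8%. Of the 15, 6 encode kinetochore proteins, which tie chromosomes to spindle microtubules, and 5 of them rose in MI_30min (0.41 to 0.68 over the 6) and 4 in Dm_30min. The MAP65/Ase1/PRC1 gene (Tatro_002452-T1), a bundler of antiparallel spindle microtubules in other organisms, was at 169 ± 10 CPM in MI_90min and 85.1 ± 9.5 CPM in CT0 (SD, n = 3 each; log2 change 1.01, adjusted p 1.8e-06, edgeR). It was at 122 CPM in Dm_90min (0.59, adjusted p 0.0029, edgeR), a call that ended without Dm_90min replicate 2 (0.36). The call also ended against CT8 (0.32, adjusted p 0.087, edgeR). The second gene with a Kinesin motor domain text (Tatro_007540-T1), chosen after its values were seen, was at 162 CPM in MI_30min and 108 CPM in CT0, opposite to the member kinesin.

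Genes of the list for folding of actin and tubulin were mostly lower in MI_30min. The list also takes in a Chaperonin Cpn10 gene and a Heat shock chaperonin-binding gene, each matched by a word outside the theme. Of the 12 genes in this list 11 fell and 0 rose in MI_30min (median log2 change -0.41), beside 46.6% lower and 47.3% higher among texted genes. All 12 of 12 were lower than in Of_30min (median -0.76), beside 43.5% of texted genes. All 8 genes with the text of TCP-1, the ring chaperonin that folds actin and tubulin, were lower in MI_30min than in CT0 (-0.43 to -0.28), and 7 in MI_90min, beside 26% of texted genes. In Dm_30min 0 of the 8 were called against CT0 (-0.25 to -0.08). All 8 were lower in Dm_30min than in Of_30min (-0.80 to -0.41), beside 28.5% of texted genes. In Of_30min itself, 6 of the 8 were called higher than in CT0 (0.22 to 0.67 over the 8), beside 6.2% of all genes. In Dm_30min 4 of 8 were higher than in MI_30min, beside 24.9% of texted genes. A Phosducin gene (Tatro_003121-T1), of a family that assists this chaperonin, was at 20.7 ± 2.5 CPM in MI_90min and 55.9 ± 15.8 CPM in CT0 (SD, n = 3 each; log2 change -1.48, adjusted p 1.7e-08, edgeR) and at 24.4 CPM in Dm_90min (-1.17, adjusted p 2.5e-06). Among the rises in this list was that of a Chaperonin Cpn10 gene (Tatro_004290-T1), of the mitochondrial chaperonin type, at 172 CPM in Dm_90min and 93.7 CPM in CT0 (0.85, adjusted p 3e-06, edgeR), which was not called against CT8 (0.15, adjusted p 0.35). Another was that of a Heat shock chaperonin-binding gene (Tatro_000263-T1) in MI_90min (0.39, adjusted p 0.0079, edgeR), whose direction turned against CT8 (-0.77) and whose call ended without CT0 replicate 3 (0.22). Tubulin binding cofactor A (Tatro_008825-T1) rose in Dm_4h (0.46, adjusted p 0.029, edgeR), a call that ended against CT0 (0.31) and without any 1 of the CT8 libraries or Dm_4h replicate 2 or 3 (0.40 to 0.49).

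The 4 remaining lists are short. All 3 polarity and exocyst genes were lower in MI_30min, MI_90min and Dm_90min than in CT0, beside 46.6%, 26% and 17.8% of texted genes. The exocyst gene Sec6 (Tatro_008180-T1), which helps tether secretory vesicles, was at 63.4 CPM in MI_4h and 92.8 CPM in CT8 (log2 change -0.55, adjusted p 0.00062, edgeR), a call that ended against CT0 (-0.25, adjusted p 0.17). Of the 5 wall synthesis genes, 3 fell and 2 rose in MI_30min, near the texted shares of 46.6% and 47.3%. The Chitin synthase Tatro_001815-T1 was at 523 CPM in MI_90min and 823 CPM in CT0 (-0.65, adjusted p 8.8e-06, edgeR), and Tatro_005245-T1, with a Congo red resistance text, was at 124 CPM in MI_90min and 51.6 CPM in CT0 (1.25, adjusted p 6.1e-07). Of 8 cell cycle genes 5 rose and 2 fell in MI_30min, beside the same texted shares, and 0 were called in Dm_90min. Among the 3 genes matched by aerial and spore words, the hydrophobin Tatro_007246-T1 was at 72.8 CPM in MI_4h and 7.28 CPM in CT8 (log2 change 3.30, adjusted p 1.8e-11, edgeR). The Cerato-platanin gene (Tatro_001935-T1) went the other way, at 584 CPM in MI_4h and 1056 CPM in CT8 (-0.85, adjusted p 0.025, and -0.67 with adjusted p 0.1 against CT0, edgeR).

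**Figure D4:**
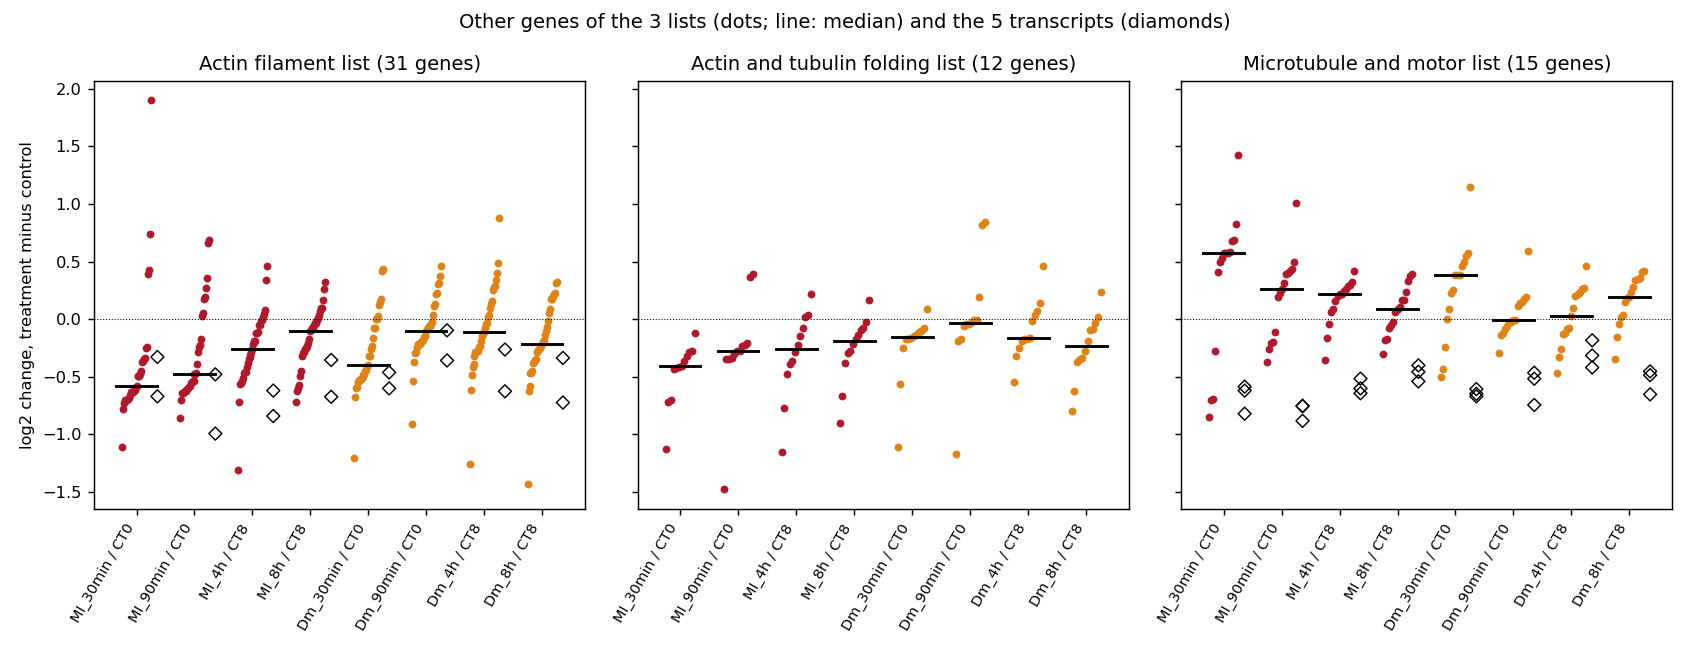
Log2 change against CT0 (30 and 90 min) or CT8 (4 h and 8 h) (vertical axis) of the other genes of the actin filament list (31), the folding list (12) and the microtubule and motor list (15), for the 8 MI (red) and Dm (orange) groups; dots are genes, lines are medians of the dots and open diamonds are the members that belong to the list. In MI_30min the median is -0.58 for the actin filament list and 0.57 for the microtubule and motor list, whose 3 members all lie below 0.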

How the data were processed

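RNA was sequenced from 42 libraries (14 groups of 3) of T. atroviride mycelium. Per the labels' protocols, total RNA was extracted with TRIzol and libraries were made with a stranded total RNA kit. Per the submitters' processing notes, FastQC 0.11.6, HISAT2 2.1.0 and HTSeq 0.14.1 were used. The sources used here do not give the genome build, the annotation or whether counting used strand, so reads of antisense, overlapping or near-identical genes may be shared, and no sequence or gene length was used. The authors deposited raw read counts per gene model for all libraries, and tables of log2 fold changes with p-values and false discovery rates (their q-values) that carry product texts. Of 12018 models, 204 genes had several with identical counts, and 1 was kept for each, leaving 11786 genes.

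From the deposited counts, edgeR 4.0.16 (R 4.3.3) was run with TMM scaling, filterByExpr by group (9193 genes kept), 1 coefficient per group over all 42 libraries, quasi-likelihood F tests and Benjamini-Hochberg adjustment per contrast, with calls at an adjusted p under 0.05. There were 34 contrasts. Standard errors are the log2 change divided by the root of F. The procedure was tested on simulated counts. Ratios and figures used numpy 2.4.6, scipy 1.17.1 and matplotlib 3.10.9 (Python 3.11.15). The standard errors rest on a spread shared by all groups of 3, and totals of 1152096 to 5398093 counts limit the precision for low genes.

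The members and the gene lists were chosen with earlier results of these data known. Named genes are the 5 members, for each list the largest called rise and fall with at least 10 CPM in MI_90min, Dm_90min, MI_4h and Dm_4h against their control, and for each member the 3 texted genes with the highest Pearson correlation over group means. Not every gene that this rule names is reported here. Alternatives were library totals, DESeq2 1.42.0, no filter, a replicate block, the other control or the mean of both, leaving out libraries with 1 gene over 10% of counts, a fit of only the libraries compared, and leaving out each library in turn. Interaction contrasts and list counts without words outside the theme were added after values had been seen.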

Additional observations from a re-analysis of the deposited data

Results flagged for a closer look

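For actin (Tatro_010755-T1), the difference between larvae and injury was not the same at 90 min as at 30 min. The log2 change of Dm against MI was 0.38 at 90 min and -0.13 at 30 min, a difference of 0.52 ± 0.13 (SE, adjusted p 0.0054, edgeR's interaction contrast, chosen after the values had been seen). It was called in each fit with 1 library left out (0.46 to 0.60), with library totals (0.47, adjusted p 0.022) and without a filter (0.50, adjusted p 0.012), but not in a fit of only the 4 groups concerned (0.52, adjusted p 0.13).

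For the actin-depolymerising factor (Tatro_005840-T1), the same contrast gave 0.57 ± 0.18 (adjusted p 0.024, edgeR), from 0.64 at 90 min and 0.07 at 30 min. This call ended with library totals (0.53, adjusted p 0.059), in a fit of only the 4 groups (0.57, adjusted p 0.19), and without MI_30min replicate 1 or 2, MI_90min replicate 1 or 3, Dm_30min replicate 1 or 3 or Dm_90min replicate 2 or 3, with values from 0.43 to 0.77 over all fits that left out 1 library.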

How the results depend on the processing

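Counts of called pairs of member and time changed by over 1.5 times in these cases. With library totals, Of against control gave 3 calls, Dm against MI 1 and CT8 against CT0 1. Without a filter Dm against MI gave 3, and in fits of only the libraries compared Dm against MI gave 0 and the larval course 0. Without the libraries dominated by 1 gene, CT8 against CT0 gave 1 call and the ADF to actin difference of Dm against Of was 0.16 (adjusted p 0.091). Against the other control, the direction turned for actin (Tatro_010755-T1) in Dm_4h (0.035), Of_90min (-0.011) and Of_8h (0.63) and for alpha tubulin (Tatro_003350-T1) in Of_8h (0.30). It also turned for Tatro_000263-T1 in MI_90min (-0.77, and -0.19 against the mean of both controls), Tatro_003793-T1 in Dm_90min (-0.020) and Tatro_005079-T1 in Dm_4h (0.014). For Of against the other control the count was 6 as before, but all 6 reported calls ended and 6 others came in, 4 in Of_4h and 2 in Of_8h. The causes were not tested.

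With 1 library left out, the calls numbered 4 to 6 for Of against control, 4 to 5 for Dm against MI, 17 to 18 for Dm and 18 to 19 for MI against Of, and 1 to 2 for CT8 against CT0. The log2 ADF to actin difference ran from 0.12 to 0.20 for Dm against MI and from 0.14 to 0.22 for Dm against Of, and the kinesin to beta tubulin difference from -0.22 to -0.089 for Dm against MI and from -0.0072 to 0.12 for Dm against Of.

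Library totals moved the median of all genes by over 0.1 in 7 contrasts, the furthest in Of_30min against CT0 (-0.19, and -0.02 with scaling). They moved the share of higher calls by over 10 points in 18 of 32 contrasts, to 16.3% in Of_30min against CT0 (62.6% with scaling) and 74.7% in MI_8h against CT8 (48.5%). They also ended the calls of the kinesin in MI_8h against Of_8h (-0.31, adjusted p 0.14), actin in Dm_90min against Dm_30min (0.27, adjusted p 0.06) and alpha tubulin in CT8 against CT0 (0.31, adjusted p 0.058, edgeR). DESeq2 added beta tubulin in CT8 against CT0 (adjusted p 0.019) and alpha tubulin and the kinesin in Dm_4h against MI_4h (0.037 and 0.047). Same-numbered libraries share only a number (20 of 273 pairs correlated above 0.1), and with the replicate block Dm against MI had 4 calls in place of 5, beta tubulin at 4 h (0.29) being the 1 member call that changed. List counts at 4 h and 8 h can depend on the control. Against CT0, the actin filament list had 4 lower and 2 higher in MI_4h. Its count against CT8 is not given here and no share of all genes was counted for CT0 at 4 h, so nothing is read from these numbers. Library totals limit what can be seen for low genes such as the kinesin.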

Other observations

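Of the 6 other genes with an ADF-type domain, 4 were higher in Dm_30min than in MI_30min (log2 changes of all 6 from 0.18 to 0.67), beside 24.9% of texted genes called higher, and 0 were called between Dm_30min and CT0 (-0.26 to 0.18). The member (Tatro_005840-T1) was at 0.07 in Dm_30min against MI_30min, and no difference between it and the 6 was tested. At 90 min, both F-actin capping subunits (0.42 and 0.50) and 3 of 5 Arp2/3 subunits (0.18 to 0.74 over the 5) were higher in Dm_90min than in MI_90min by edgeR in the fit of all libraries, beside 11.1% of texted genes. These groups were picked from the list after their values had been seen.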
